A study of Brachypodium distachyon with 8 samples.

Results

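The loci described here are 3' UTRs of Brachypodium distachyon transcripts at which the commonest single length of small RNA reads was 30 to 33 nt, although in the median locus reads of 25 to 41 nt made up less than 50% of the total. A locus is 1 transcript identifier. Reads were summed over 8 libraries, loci with 40 or more reads were kept, and the 100 loci with most reads were left out. Among the loci kept, those in which 25 to 41 nt held more reads than 15 to 19, 20 to 23 or 24 nt, and in which the commonest single length was 30 to 33 nt, were taken, with ties given to the shorter length. This gave 84 loci from 55 genes, of 30815 loci from 24118 genes in the files and of 18091 loci that passed the limits on reads. The lengths of all libraries chose these loci, so their pooled lengths are a description and carry no test.

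Leaves of Bd21, a diploid inbred line of this model grass, were sampled after stress or without it, and small RNAs selected at 15 to 40 nt were sequenced to ask how they respond. The stressed plants had their soil soaked with 300 mM NaCl for 48 h, were kept at 4 °C for 24 h or 6 h, were immersed in water at 42 °C for 3 h or 1 h, or were kept in air at 42 °C for 3 h or 1 h. The unstressed plants came from the same growth conditions at 22 °C. Each condition is 1 library, so every difference below is between libraries, intervals cover counting error only, and no p-value is given. The labels name 2 library kits without saying which library was made with which, so kit and condition cannot be told apart.

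Dicer-like enzymes of plants cut double-stranded RNA mainly into products of 21 nt, the length of most microRNAs and of many small RNAs that silence transcripts, and of 24 nt, which direct DNA methylation. A 3' UTR lies between the stop codon and the poly(A) tail, and reads there can stem from the transcript itself or from small RNAs made at that place. Longer small RNAs have been described in Arabidopsis, but they have no size class that is as well understood. The RefSeq table for Brachypodium_distachyon_v3.0 lists 31335 genes, and 0 of the 24118 genes in the files could be joined to it, so the loci go by their identifiers, and no gene function, position or sequence is given.

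The files hold 1730029 to 4622303 reads per library, which is the 3' UTR part of each library and not its full depth. Counts were scaled with TMM, the trimmed mean of log ratios between 2 libraries. Compared with scaling by totals, TMM set the size of each stressed library 3.46 to 8.51 times larger against the unstressed one. Reads are divided by this size, so scaled reads of stressed libraries are lower by these factors than with totals. Scaled reads below are TMM-scaled to the unstressed library. Directions against the unstressed library depend on this choice, and values under total scaling stand beside them.

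The 30 to 33 nt peak was shallow in most of the 84 loci. The commonest length was 30 nt in 19 loci, 31 nt in 25, 32 nt in 18 and 33 nt in 22. It held a median of 13.8% of a locus's reads (9.69% to 56.4%), and the 4 lengths of 30 to 33 nt together a median of 24.7% (13.1% to 72.5%). Reads of 25 to 41 nt made up a median of 47.0%, those of 15 to 19 nt 30.4%, those of 20 to 23 nt 17.1% and those of 24 nt 4.44%. In 56 loci the best length outside 30 to 33 nt was a short one of 15 to 19 nt. The lead of the commonest length over that runner-up was at most 1 read in 19 loci and at most 2 reads in 39, so a few reads would have moved these loci out of the list.

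Most of these loci had few reads. Pooled reads ran from 40 to 5409 with a median of 118.5, and 61 loci had fewer than 200. The 9 loci with more than 2000 reads, from 6 genes, held 72.3% of the 42685 reads. At the edge of the rule, Bradi4g36770.1 and Bradi5g26930.1 entered with 40 reads each, of which 8 and 6 were 32 nt, while Bradi1g29130.1 and Bradi4g40540.1 stayed out with 39 reads, 5 of 31 nt and 6 of 32 nt. At the other edge, 34 loci with a commonest length of 29 nt and 8 with one of 34 nt otherwise met the rule. Bradi2g13080.1 and Bradi3g27270.1, with 1391547 and 1371795 reads and a peak at 31 nt, were outside only because they were among the 100 most abundant loci.

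**Figure D1:**
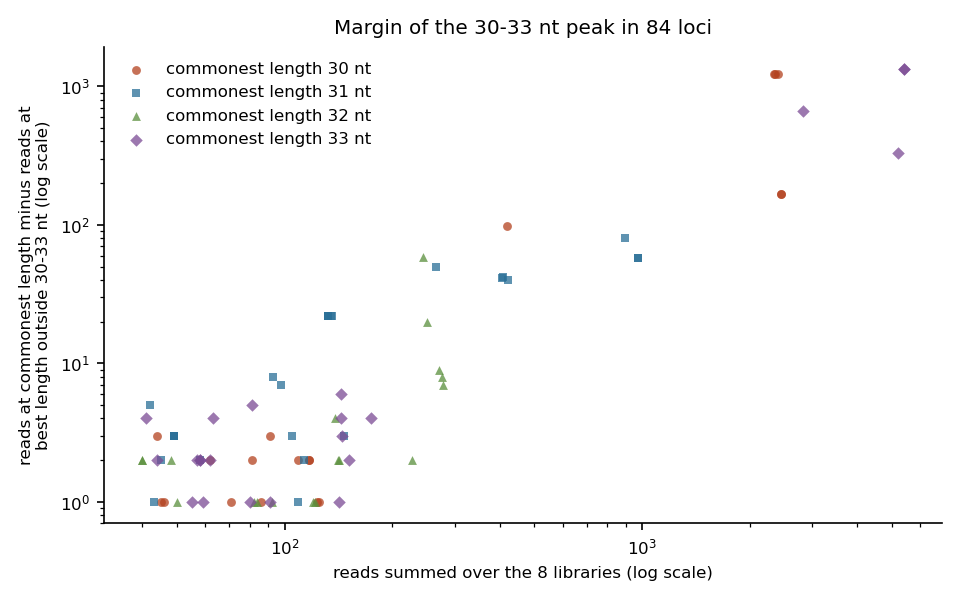
Each point is 1 of the 84 loci, with its reads summed over 8 libraries on the x axis and, on the y axis, its reads at the commonest length minus those at its best length outside 30 to 33 nt, both on log scales. Colour and shape give the commonest length. The lead is 2 reads or fewer in 39 loci, and the loci with more than 2000 reads lead by 167 reads or more.

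The 84 loci are not 84 separate sources of reads. Identifiers whose counts over libraries and lengths coincided for 90% or more of reads were joined, which left 56 groups, 18 of them with more than 1 locus. Of these 18 groups, 17 were transcripts of 1 gene, the largest with 5 transcripts of Bradi2g34010. The remaining group joined 3 genes, Bradi2g13100.1, Bradi2g20970.1 and Bradi5g05680.1. Member genes numbered 8, 16, 17, 7 and 7 among identifiers that begin with Bradi1g, Bradi2g, Bradi3g, Bradi4g and Bradi5g. As shares these were 14.5%, 29.1%, 30.9%, 12.7% and 12.7%, beside 29.6%, 23%, 22.6%, 15.8% and 8.94% of all genes with 40 or more reads outside the 100 most abundant loci.

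A check that does not reuse the reads behind the choice left out each library in turn, chose loci by the same rule from the other 7, and looked at their commonest length in the library left out, where they had 10 or more reads. The peak recurred at 30 to 33 nt in a minority of the chosen loci in 6 libraries. It did so in 15 of 52 loci under salt (28.8%), 12 of 45 after 24 h of cold (26.7%) and 23 of 60 after 6 h (38.3%). In the heat libraries it did so in 9 of 100 after 3 h in water (9.0%), 10 of 17 after 1 h in water (58.8%), 13 of 77 after 3 h in air (16.9%) and 13 of 71 after 1 h in air (18.3%). In the unstressed library the count was 14 of 21 (66.7%). Among all other loci 0.499% to 3.11% had such a peak in the same libraries, and the lower end of the interval for the chosen loci, 4.20% to 43.0%, was above that share in each library.

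The class of 25 to 41 nt reads recurred more often than the peak. It led in 28.2% to 94.1% of the loci chosen without the library, against 5.36% to 29.7% of other loci. Where 40 or more reads were asked for in the library left out, the peak recurred in 44% to 84.6% of chosen loci. Chosen loci share reads and are not replicates of each other.

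**Figure D2:**
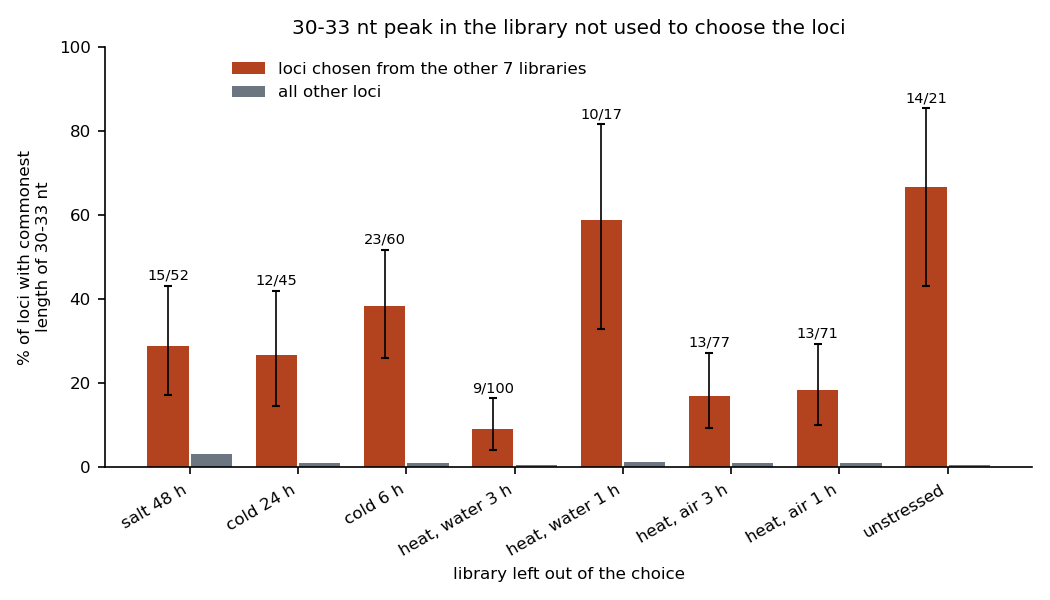
For each library, the left bar gives the percentage of loci, chosen by the same rule from the other 7 libraries, whose commonest length in that library is 30 to 33 nt, with its exact 95% interval and the counts above it. The right bar gives the same percentage for all other loci. The left bars range from 9.0% to 66.7% and the right bars from 0.499% to 3.11%.

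Pooled over the 84 loci, 30 to 33 nt held 37.0% of reads under salt, 46.3% (24 h) and 42.9% (6 h) in cold, 36.9% (3 h) and 49.9% (1 h) in hot water, 32.9% (3 h) and 33.6% (1 h) in hot air, and 25.6% in the unstressed library. In the 18007 other loci with 40 or more reads the same lengths held 7.16% under salt, the highest share, 2.11% to 4.86% in the other stressed libraries and 2.61% without stress. Their reads were most often 24 nt long in each library. The rule chose the 84 loci by these lengths in the same reads, so this contrast was set by the choice. In loci chosen without the library, 30 to 33 nt held 24.2% to 50.2% of its reads, against 2.11% to 7.17% at other loci. Without the abundant loci the order of the libraries differed. In the 51 groups with 2000 reads or fewer, 30 to 33 nt held 17.9% to 34.5% in the stressed libraries and 38.6% (31.9% to 45.7%) in the unstressed one, which had 202 reads of these groups. Their commonest pooled length was 16 nt after 3 h in hot water and after 1 h in hot air, 32 nt without stress and 31 nt in the other 5 libraries.

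**Figure D3:**
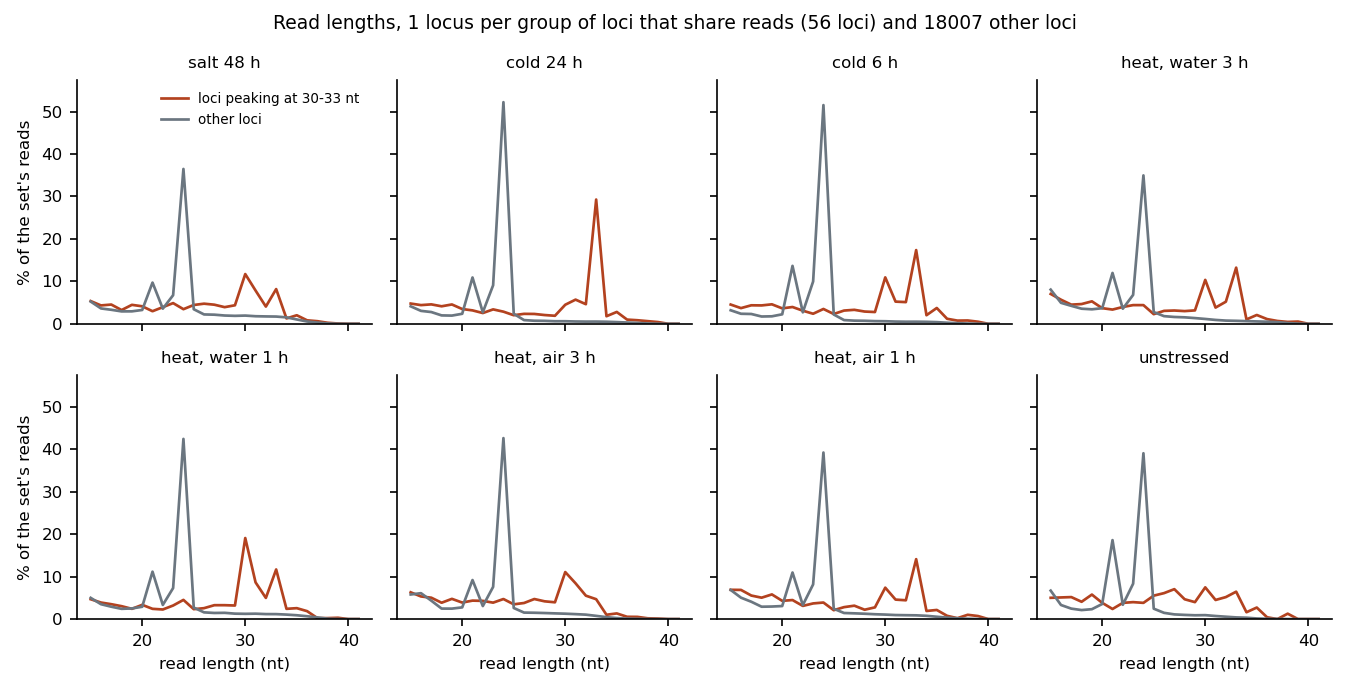
Each panel is 1 library, with read length in nt on the x axis and the percentage of the set's reads at that length on the y axis. The red line pools 56 loci, 1 per group that shares reads, and the grey line 18007 other loci. The grey line peaks at 24 nt in each panel, and the red line at 30 or 33 nt, with the 5 groups of over 2000 reads included. The rule chose the red loci for such a peak in these reads.

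By level, 32 of the 84 loci (38.1%) had their highest scaled value in the salt library, against 21.1% of the 18191 loci with 40 or more reads. With 1 locus per group that shares reads the salt share was 42.9%, and under total scaling 51 of the 84 loci were highest there, 60.7% against 30.9% of all. The 24 h cold library was highest in 16 loci (19%, against 12.8%), but in 12.5% of loci with 1 per group, and under total scaling in 22.6% of the 84 against 43.2% of all, so its share above that of all loci did not hold. The 6 h cold library was highest in 0 loci, against 11.6%, and under total scaling in 1.19%, against 5.36%. The salt library helped to choose the loci and also held the highest share of 30 to 33 nt reads at other loci. The part of either in the salt counts was not tested. The unstressed library had 0 reads at 39 of the loci (46.4%, against 24.5% of all loci tested) and 10 or more at 18.

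Bradi3g32550 had the highest read count of the list. There were 2829 reads at transcript Bradi3g32550.1, 5396 at Bradi3g32550.2 and 5409 at Bradi3g32550.3, with a peak at 33 nt in all 3. Reads at Bradi3g32550.3 were 1.91 times those at Bradi3g32550.1, and 115 of the 184 counts per library and length were exactly 2 times as large. Counts were even in 96.2% of entries at Bradi3g32550.3 and in 45.1% at Bradi3g32550.1, so the same reads may stand in the larger counts at 2 times their number. With the 2829 reads of Bradi3g32550.1 the gene would rank below Bradi2g35090.1, which had 5206. Over all loci tested the median locus had 63.75% even entries, and over the 84 loci 76.9%. Intervals are too narrow where reads were counted 2 times.

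At Bradi3g32550.1 there were 163 reads under salt, 772 (24 h) and 365 (6 h) in cold, 459 (3 h) and 57 (1 h) in hot water, 449 (3 h) and 480 (1 h) in hot air, and 84 in the unstressed library. Reads of 33 nt were 34 of these under salt, 408 and 129 in cold, 114 and 15 in water, 27 and 124 in air, and 14 without stress. The 33 nt share was therefore highest after 24 h of cold, at 52.8% (49.3% to 56.4%), and lowest after 3 h of heat in air, at 6.01% (4.00% to 8.63%), where 19 nt was the commonest length. In the other 6 libraries it lay between 16.7% and 35.3%, and 33 nt was the commonest length in each.

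The 33 nt reads of Bradi3g32550.1 and its reads of all other lengths differed by unequal amounts between libraries. The same reads set 33 nt as its commonest length, so this and like splits below are descriptions. After 3 h of heat in air, 33 nt reads were 5.85-fold lower than after 1 h (3.84 to 9.24), while reads of other lengths were 1.07-fold lower (0.931 to 1.24). After 24 h of cold, 33 nt reads were 3.35-fold higher than after 6 h (2.74 to 4.12) and the others 1.64-fold higher (1.38 to 1.93). After 3 h of heat in water, 33 nt reads were 3.54-fold higher than after 1 h (2.06 to 6.54) and the others 3.83-fold higher (2.77 to 5.41). The length pattern thus changed between both times in air and in cold, and both kinds of read differed by a similar factor between the times in water.

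Bradi2g35090.1 had 5206 reads and a commonest length of 33 nt in 6 libraries. It had 771 reads under salt, 649 (24 h) and 668 (6 h) in cold, 560 (3 h) and 294 (1 h) in hot water, 1092 (3 h) and 766 (1 h) in hot air, and 406 in the unstressed library. Reads of 33 nt were 26.5% after 1 h in water, 21.6% after 6 h of cold, 7.69% after 3 h in air and 10.6% to 15.1% in the other 4 stressed libraries, against 4.68% (19 reads) without stress. The commonest length was 17 nt after 3 h in air and 28 nt in the unstressed library, so 33 nt led in 6 of the 7 stressed libraries and not in the unstressed one.

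Bradi4g14100.1 and Bradi4g14100.2 held identical counts, 2457 reads with a peak at 30 nt. They had 266 reads under salt, 295 (24 h) and 235 (6 h) in cold, 216 (3 h) and 83 (1 h) in hot water, 824 (3 h) and 304 (1 h) in hot air, and 234 in the unstressed library. The 30 nt share was highest after 3 h in air, at 26.8% (221 reads), and 9.79% to 18.3% in the other 7 libraries. After 3 h in air the 30 nt reads were 3.94-fold higher than after 1 h (2.84 to 5.58) and the other lengths 1.82-fold higher (1.57 to 2.11).

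Bradi2g13100.1, Bradi2g20970.1 and Bradi5g05680.1 had 2402, 2336 and 2356 reads, of which 1318 to 1320 were 30 nt, the same reads as far as the counts can show. Bradi2g13100.1 had 339 reads under salt, 193 (24 h) and 447 (6 h) in cold, 452 (3 h) and 316 (1 h) in hot water, 242 (3 h) and 326 (1 h) in hot air, and 87 in the unstressed library. Its 30 nt share was 47.1% to 64.9% in stressed libraries, against 34.5% without stress, and 30 nt was the commonest length in all 8. Of the 8 groups with 10 or more reads in every library, it was the only one to peak at 30 to 33 nt in each. Over 253 pairs of a group and a library with 10 or more reads, 96 (37.9%) did so.

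**Figure D4:**
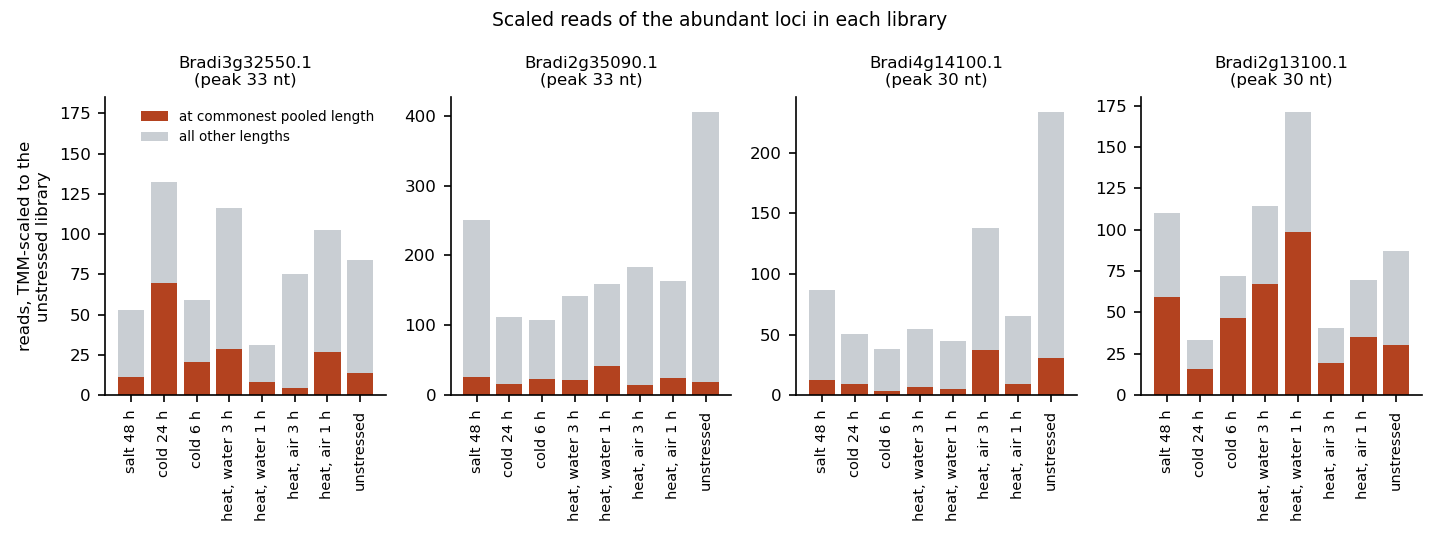
Stacked bars give the reads of 4 abundant loci in each library, TMM-scaled to the unstressed library, with the commonest pooled length in red and all other lengths in grey. The y axes differ between panels. Red makes up most of the Bradi3g32550.1 bar after 24 h of cold and little of it after 3 h of heat in air, and the Bradi2g35090.1 and Bradi4g14100.1 bars are tallest in the unstressed library under this scaling.

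Loci were compared between libraries by the ratio of scaled reads with an exact 95% interval, and a call of higher or lower asked for an interval that lies wholly beyond 2-fold, in cold and heat at both times. The 4 comparisons with unstressed plants share that library, so their lists are not independent of each other. In cold 0 of the 84 loci were higher, against 0.836% of the 18191 loci tested, and 3 were lower (3.57%, against 1.82%). In heat in water 0 were higher (1.84% of all) and 3 lower (3.57%, against 1.4%), and in heat in air 0 were higher (2.08% of all) and 0 lower (1.31% of all). Under salt 4 were higher (4.76%, against 4.51%) and 2 lower (2.38%, against 3.02%). With total scaling 31 of the 84 were higher in cold (48.9% of all loci), 15 in heat in water (23.2% of all), 25 in heat in air (34.6% of all) and 67 under salt (64.6% of all), and 0 were lower in any of the 4.

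The loci lower in cold and in heat in water were Bradi4g14100.1, Bradi4g14100.2 and Bradi2g35090.1. Bradi4g14100.1 was 4.63-fold lower after 24 h of cold (3.88 to 5.51) and 6.16-fold lower after 6 h (5.12 to 7.41), and in hot water 4.29-fold lower at 3 h and 5.20-fold lower at 1 h. Under salt it was 2.71-fold lower (2.26 to 3.24). With total scaling it was 1.84 times the unstressed level after 24 h of cold and 0.875 times after 6 h, 0.971 and 0.665 times in water, and 2.39 times under salt, so its direction turned after 24 h of cold and under salt. Bradi2g35090.1 was 3.65-fold lower after 24 h of cold and 3.76-fold lower after 6 h, but 2.33 and 1.43 times the unstressed level with total scaling.

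The loci higher under salt were 3 transcripts of Bradi2g27870 and Bradi3g41150.1. Bradi2g27870.2 had 50 reads under salt and 1 without stress, a ratio of 16.2 with a wide interval of 2.79 to 654. Bradi3g41150.1 had 31 reads and 0, 3.36-fold higher against a floor of 3 counts in the unstressed library. Neither was called higher with only its 30 to 33 nt reads.

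For the list as a whole, the median log2 ratio of salt to unstressed was 1.55, with 0.5 added to each count, against 0.45 over all loci tested. The same median was 1.52 (against 0.40) at 3 h and 1.05 (0.26) at 1 h in hot water, 1.09 (0.40) at 3 h and 0.84 (0.37) at 1 h in hot air, and 0.64 (0.32) at 24 h and 0.83 (0.27) at 6 h in cold. With 0 reads set to the floor of 3 counts it was 0.38 (against -0.04) for salt and 0.02 (-0.11) for 3 h in water, but -0.88 (-0.30) for 1 h in water, -0.35 (-0.12) and -0.35 (-0.14) for 3 h and 1 h in air, and -1.09 (-0.29) and -0.69 (-0.31) for 24 h and 6 h in cold, below all loci in these 5 libraries. With total scaling it was 4.24 (3.14) for salt and 2.72 to 3.73 for the other stressed libraries, against 2.04 to 3.41 over all loci. In 39 of the 84 loci the ratio is against 0 unstressed reads. The libraries compared also chose the loci, so these medians are a description with no test.

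The other comparisons leave out the unstressed library. After 24 h of cold, 11 loci were higher than after 6 h (13.1%, against 2.76% of all loci) and 1 was lower (1.19%, against 2.19%). The 11 are transcripts of 3 genes, with 4 of Bradi2g27870, 5 of Bradi2g34010, and Bradi3g32550.2 with Bradi3g32550.3. Bradi2g27870.2 had 215 reads after 24 h and 43 after 6 h, 5.30-fold higher (3.80 to 7.54). Its 31 nt reads numbered 55 and 7, 8.33-fold higher (3.78 to 21.7), and those of other lengths 160 and 36, 4.71-fold higher (3.26 to 6.96). Bradi3g32550.3 had 1515 reads after 24 h and 714 after 6 h, 2.25-fold higher (2.06 to 2.46). This interval is too narrow if its reads were counted 2 times. Bradi3g32550.1, with 772 and 365 reads, was not called. With counts halved at all loci, 7 of the 84 were higher (1.83% of all). Bradi3g21280.1 had 0 reads after 24 h and 14 after 6 h, 4.40-fold lower with the 0 set to a floor of 3 counts. The cold libraries also chose the loci. When the loci were chosen from the other 6 libraries, 2 of 75 were higher after 24 h and 0 lower, against 2.76% and 2.19% of all loci. With 1 locus per group that shares reads, 4 of 56 were higher. The median log2 ratio of the 84 loci was -0.05, against 0.05 over all.

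Bradi2g34010 was picked for description after its values were seen, as were Bradi3g55030, Bradi2g00700, Bradi2g54210, Bradi2g47450, Bradi1g43700 and Bradi3g11420. Bradi2g34010.2 had 63 reads after 24 h of cold, of which 38 were 31 nt, and 16 after 6 h, of which 7 were.

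Between 3 h and 1 h of heat in air 1 locus was higher at 3 h (1.19%, against 2.03%) and 2 were lower (2.38%, against 2.52%). Bradi1g71970.1 had 62 reads after 3 h and 7 after 1 h, 6.95-fold higher (3.18 to 18), and had 60 (3 h) and 13 (1 h) in water. Of its 144 reads 2 came from any other library, the one after 6 h of cold. Bradi3g47890.2 had 0 reads after 3 h in air and 16 after 1 h, 6.80-fold lower with the 0 set to a floor of 3 counts. Bradi3g11420.1 had 81 reads after 3 h and 168 after 1 h, 2.64-fold lower (2.02 to 3.49). With total scaling 6 loci were higher at 3 h (6.22% of all loci) and 1 lower (1.15% of all).

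After 3 h of heat in water 4 loci were higher than after 1 h (4.76%, against 2.51%) and 0 were lower (1.94% of all). The higher ones were the 3 transcripts of Bradi3g32550 and Bradi3g41150.1. Bradi3g32550.3 had 872 reads at 3 h and 103 at 1 h, 3.95-fold higher (3.21 to 4.89). Bradi3g41150.1 had 34 and 2 reads, a ratio of 7.92 (2.03 to 68.1).

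Heat at 42 °C reached the plants through water or through air, and the loci were set side by side at the same time. At 1 h, 4 loci were higher in water than in air (4.76%, against 1.8%) and 3 lower (3.57%, against 2.07%). Total scaling gave 2 higher (1.45% of all) and 3 lower (2.39% of all) at 1 h. At 3 h, 5 were higher (5.95%, against 2.91%) and 2 lower (2.38%, against 1.95%). The group of Bradi2g20970.1 was higher in water at both times, with 314 reads in water and 310 in air at 1 h, 2.57-fold higher once scaled (2.19 to 3.02), and 442 and 238 at 3 h, 2.80-fold higher (2.39 to 3.29). Counts were even in 100% of entries at Bradi2g20970.1 and in 80.4% at Bradi2g13100.1, so intervals of this group may be too narrow. Of Bradi2g13100.1 in that group, the 30 nt reads were 3.52-fold higher in water at 3 h (2.82 to 4.42) and the other lengths 2.19-fold higher (1.74 to 2.77). Bradi3g32550.3 was 3.43-fold lower in water at 1 h (2.79 to 4.24), with 103 reads against 896. At 3 h its reads were 872 in water and 838 in air, 1.57-fold higher in water (1.43 to 1.73), which is short of the 2-fold limit. Bradi4g14100.1 was 2.53-fold lower in water at 3 h (2.17 to 2.95), with its 30 nt reads 5.64-fold lower (3.75 to 8.82) and the others 2.1-fold lower (1.78 to 2.49). With total scaling 0 loci were higher in water at 3 h (1.52% of all) and 2 lower (4.3% of all), so the calls on the group of Bradi2g20970.1 rest on TMM there.

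Cold and heat libraries were also compared by the share of a locus's reads at its own commonest pooled length, which needs no scaling. This is a description with no test: the comparison was chosen with the lengths known, the same cold and heat reads set the commonest pooled length and chose the loci, and pooling libraries ignores the spread between them. A set of libraries with a strong peak fixes the length on which it then has the higher share. Of 31 groups with 20 or more reads in the pooled cold and in the pooled heat libraries, the whole interval of the cold share lay above that of the heat share in 8, from 7 genes, and below it in 2. In loci peaking at 25 to 29 nt 22 of 111 were above and 0 below, and in those peaking at 34 to 41 nt 4 of 10 were above and 1 below. The share above was thus 25.8% here, between 19.8% and 40% in these 2 neighbouring lists. No share over all loci stands beside it, so the count does not set these loci apart from loci in general.

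Among the 8, Bradi3g55030.2 had 36 of 95 reads at 32 nt in cold (37.9%) and 2 of 107 in heat (1.87%), with 24 and 12 reads of 32 nt after 24 h and 6 h of cold and 0 in 3 of the 4 heat libraries. Bradi2g00700.1 had 20 of 77 reads at 32 nt in cold (26.0%), 10 at each time, and 2 of 146 in heat (1.37%), but 5 of 13 in the unstressed library. Bradi2g34010.2 had 45 of 79 reads at 31 nt in cold (57.0%) and 5 of 44 in heat (11.4%). Bradi2g54210.1 went the other way, with 3 of 35 reads at 30 nt in cold (8.57%) and 117 of 327 in heat (35.8%), 84 of them after 3 h in air. In these 4 loci most reads at the commonest pooled length came from either cold or heat.

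Other loci kept or changed their peak with no such split. Bradi2g47450.1, with 244 reads, had its commonest length at 32 nt in 7 of 8 libraries and at 22 nt after 1 h in air. Bradi1g43700.1, with 973 reads, peaked at 31 nt under salt, after 6 h of cold and after 3 h in air (49 of 141 reads), at 35 nt after 24 h of cold and at 17 to 24 nt in the other 4 libraries.

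**Figure D5:**
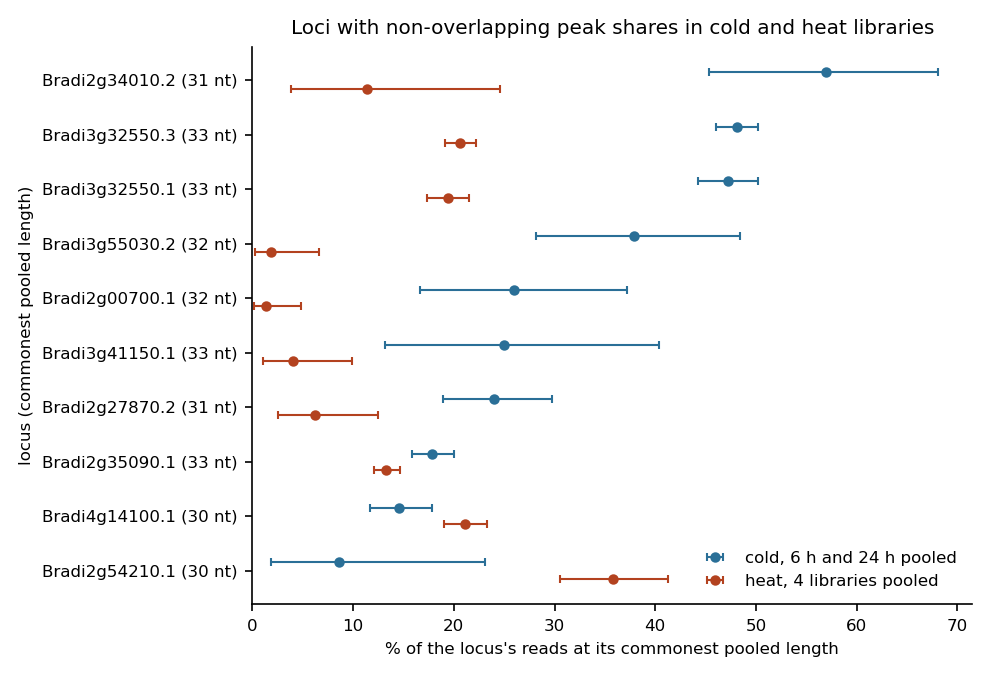
For the 10 loci, 1 per group that shares reads, whose intervals did not overlap, the x axis gives the percentage of the locus's reads at its commonest pooled length, in the 2 cold libraries pooled (blue) and in the 4 heat libraries pooled (red), with exact 95% intervals. Bradi3g32550.1 and Bradi3g32550.3 are transcripts of 1 gene. Cold lies to the right of heat in 8 loci and to the left in Bradi4g14100.1 and Bradi2g54210.1.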

How the data were processed

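Per the file headers, the deposited values are raw counts of reads per 3' UTR identifier and read length, 1 table per library. The tools named in the submitters' processing notes are Bowtie 0.12.7, bedtools 2.10.0 and CASAVA. Not given in the sources used here are the genome build, strand use and the handling of reads that map more than once. Headers are shifted against columns, so length was read from the column running from 15 to 41.

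TMM factors came from edgeR 4.0.16 over all identifiers, with 30% of log ratios and 5% of levels trimmed. Library totals, DESeq2 1.42.0 size factors and TMM over loci with 40 or more reads were alternatives. Ratios have exact (Clopper-Pearson) 95% intervals of the conditional binomial share, from scipy 1.17.1 in Python 3.11.15. They were also run on simulated counts that held counting error only. The simulation had no repeated counting of reads and no spread between plants, so it cannot show how well the intervals hold here. A fold against 0 reads used a floor of 3 counts in that library. The loci, rules and lists were chosen with earlier results of these data known. The rule named the 6 loci with most reads, the 2 with the highest share at a single length, and the called loci whose interval lay farthest from no change, 2 per direction for each stress and 1 for each direct comparison.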

Additional observations from a re-analysis of the deposited data

How the results depend on the processing

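No paired analysis was possible because each condition is 1 library. The number of loci depended on the rule: 224 without a minimum of reads, 23 with 200 or more reads, and 305 when lengths were averaged over libraries as shares, of which 38 are among the 84. Leaving out each library in turn gave 69 to 115 loci, 52 to 83 of them among the 84. With 40 reads asked for in the library left out, the recurrence of the peak rose in the stressed libraries. It was 63.6% under salt, and in cold 84.6% at 24 h and 65.2% at 6 h. In hot water it was 47.1% at 3 h and 66.7% at 1 h, and in hot air 44% at 3 h and 58.8% at 1 h. In the unstressed library it fell from 66.7% to 60% (9 of 15 loci).

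With library totals, 31 loci were higher and 0 lower in cold, 25 higher in heat in air, 15 higher and 0 lower in heat in water, and 67 higher and 0 lower under salt. Totals gave 7 differing loci between the times in air and 2 between water and air at 3 h. Heat in air gave 3 lower loci with DESeq2 size factors (1.61% of all). It also gave 3 with TMM over loci with 40 or more reads (1.56% of all), an alternative chosen after seeing the data. Loci chosen from libraries outside the comparison form other lists, only partly made of the 84. In cold 1 of 77 was higher (0.836% of all loci). In heat in water 1 of 92 was higher (1.84% of all) and 6 were lower (1.4% of all). Under salt 6 of 78 were lower (3.02% of all). Between the times in cold 2 of 75 were higher and 0 lower (2.76% and 2.19% of all). With 1 locus per group that shares reads, 56 loci entered, and the shares over all loci stayed as in the main counts. Salt gave 2 higher and 1 lower, and 5 differed between the times in cold, 4 between water and air at 1 h and 4 at 3 h. Halved counts gave 0 lower under salt (2.23% of all) and 1 differing between the times in air (1.29% of all higher and 1.86% lower). Reads of 30 to 33 nt alone gave 1 lower in heat in air (0.209% of all) and 5 lower in heat in water (0.143% of all). Under salt they gave 0 higher and 0 lower (0.385% and 0.264% of all). They gave 9 differing loci between the times in air, and 12 and 11 between water and air at 1 h and 3 h. With these reads, 0.412% of all loci were higher and 0.495% lower between the times in air. Between water and air the shares were 0.522% and 0.121% at 1 h, and 0.346% and 0.566% at 3 h. The rule chose the 84 loci for reads of these lengths, of which other loci hold few. Fewer loci or reads enter some of these alternatives. The cause of these shifts was not tested. In the direct comparisons, where both directions were counted together, single directions also moved. Between the times in cold, lower loci were 3 with 30 to 33 nt reads alone (0.379% of all) and 0 with totals (0.77% of all). Higher loci were 7 with halved counts (1.83% of all). Between water and air, totals gave 2 higher loci at 1 h (1.45% of all). Of 114 loci chosen from outside libraries, 5 were lower at 3 h (1.95% of all). Depth limits the loci with few reads: in the unstressed library 39 of 84 had 0 and 27 had 1 to 9.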
